A study of Caenorhabditis elegans with 16 samples.

Results

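The passenger strands described here are the less abundant arms of 56 microRNA (miRNA) hairpins of Caenorhabditis elegans, measured by small RNA sequencing of comma-stage embryos. They were chosen from the wild-type libraries alone. UMIs (unique molecular identifiers, which count molecules rather than reads) were summed over both N2 libraries for each strand, and the arm with the lower sum was taken when that sum was 10 or more. Of 134 hairpins with both arms listed in N2, the 6 of the miR-51 family, 50 late-numbered hairpins and 22 below the threshold were left out. The 56 passengers are among 366 strands listed in the 16 libraries. The passenger was the 5p arm in 41 hairpins and the 3p arm in 15.

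Each of 8 strains had 2 libraries, each made from 50 whole embryos grown to the comma stage at 20 °C. miR-51null (MLC1800) carried nDf67, n4100 and nDf58, which together remove the miR-51 family, and is kept with lucEx1057, an array with a miR-54 cluster fosmid and GFP markers. The sources do not say whether the sequenced embryos had lost the array. Of the miRNA UMIs in the miR-51null libraries, 102411 of 104016 and 90806 of 91806 were outside the miR-51 family. The source of the rest, which were on strands of the family, was not tested. miR-54C (MLC2290; nDf67, n4100) kept the miR-54 cluster, miR-54+55 (MLC2394; n4100, nDf67, luc177) kept miR-54 and miR-55, and miR-54 (MLC2393; n4100, nDf67, luc180) kept miR-54 alone and grows slowly. In the other strains nDf67 and nDf58 were combined with a mir-52 hairpin exchanged for that of miR-51 (miR-52to51, MLC1997, luc143), miR-53 (miR52to53, MLC1917, luc140) or miR-57 with a changed seed (miR52to57seed, MLC1918, luc141). N2 was the wild type. All 7 mutant strains shared nDf67. Each strain had its own adapter barcode, so barcode and strain cannot be told apart. The study calls the duplicates of a strain independent, and the sources used here do not say whether they came from separate cultures, so p-values measure the spread between these libraries.

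A miRNA hairpin is cut by Dicer into a short duplex of its 5p and 3p arms. One arm, the guide, is retained by an Argonaute protein and pairs with target messages, while the other, the passenger or star strand, is usually discarded and degraded. Both arms come from the same hairpin, so their ratio is a common measure of arm choice that does not need the amount of hairpin made.

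Total miRNA UMIs per library were 18481 to 844718, of which 259 to 11394 were on the 56 passengers. Library N2 replicate 1 was the deepest and miR52to53 replicate 1 the shallowest. The guides of miR-35 to miR-42, the family of the early embryo, made up 42% to 55.4% of the UMIs outside the miR-51 family. Guides of 5 larval timing miRNAs, the lin-4 and let-7 strands with miR-241, miR-84 and miR-48, ranged together from 219 to 4550 CPM (UMIs in 1000000 outside the miR-51 family, after scaling between libraries), with the highest levels in miR-54 replicate 1 and miR52to53 replicate 1. The part of these differences in the results was not tested.

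In N2, the ratio of a passenger to its guide ran from 0.165 passenger UMIs per 100 guide UMIs for miR-36-5p to 46.8 for miR-243-5p, with a median of 4.11. These are the values that chose the members, and they are given as a description. The passenger stood below 1 per 100 in 13 hairpins, between 1 and 10 in 33, and at 10 or more in 10. At the low end, miR-36-5p was followed by miR-35-5p at 0.218, miR-40-5p at 0.228, miR-64-3p at 0.260 and miR-82-5p at 0.296 per 100. At the high end, miR-243-5p was followed by miR-259-3p at 26.5, miR-46-5p at 24.5, miR-250-5p at 21.6 and miR-83-5p at 14.2 per 100. The extremes differed in depth as well: miR-36-5p rested on 100 passenger and 60602 guide UMIs, and miR-243-5p on 36 and 77.0.

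By molecules, miR-58a-5p was the most abundant passenger, with 1538 UMIs in N2 beside 49139 on its guide, the bantam-family miR-58a-3p. miR-2-5p followed with 1442, miR-46-5p with 821, miR-72-3p with 628, miR-62-5p with 608, miR-42-5p with 590, miR-229-3p with 523 and miR-79-5p with 519. High abundance did not go with a high ratio in each case, since miR-58a-5p stood at 3.13 per 100 and miR-46-5p at 24.5. At the threshold, the lowest members were miR-242-3p with 11 UMIs, miR-63-5p with 17 and miR-252-3p with 17. The hairpins just outside it were those of miR-75-5p and miR-360-3p with 8 each and miR-34-3p and miR-77-5p with 7 each.

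**Figure D1:**
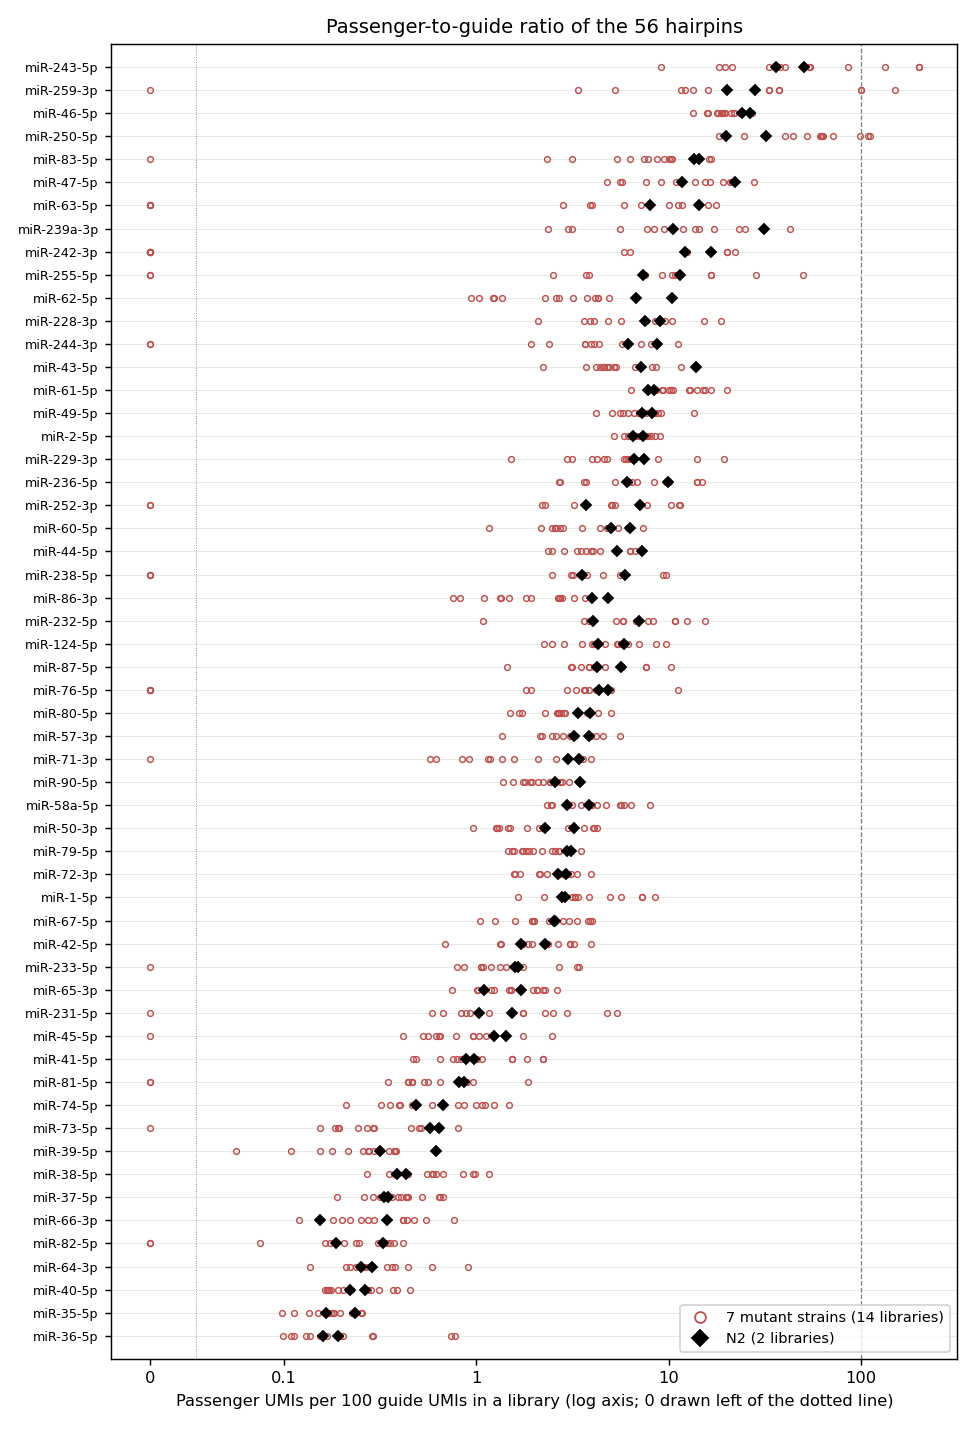
Passenger UMIs per 100 guide UMIs (log axis) for the 56 hairpins, ordered by their pooled N2 ratio; open circles are the 14 mutant libraries and diamonds the 2 N2 libraries. Ratios in N2 run from 0.165 to 46.8 per 100, and few mutant libraries reach the dashed line at 100, where both arms are equal.

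The order of the arms set in N2 was also found in the 14 libraries that took no part in the choice. In 52 of 56 hairpins the passenger was below the guide in all 14. The exceptions were miR-250-5p, above its guide in 2 libraries, miR-243-5p, above it in 3, miR-259-3p, above it in 1 and level with it in 2, and miR-242-3p, where both arms were at 0 in 2 libraries. Apart from miR-250, these were hairpins of 77.0 to 98 guide UMIs in N2.

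A filter of at least 10 UMIs in at least 2 libraries left 46 passengers for testing, 44 of which also passed without the N2 libraries. The 10 others, with 11 to 45 UMIs in N2, were too sparse. Across the 46, ratios pooled by strain spanned 148-fold between hairpins in N2, while the highest strain stood a median of 2.58-fold above the lowest for a given hairpin (range 1.29 to 8.30). miR-2-5p, the passenger of a miRNA that lies in an intron of ppfr-1, varied least, and miR-62-5p most. They had 1442 and 608 UMIs in N2, while miR-83-5p, with 107, spanned 7.40-fold and miR-239a-3p, with 35, spanned 6.31-fold. The part of depth in these ranges was not tested. Spearman's rho between the pooled ratios of a mutant strain and of N2 was 0.848 to 0.926 over the 46 hairpins. It is a description, since arms of a hairpin and libraries share their depth.

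Ratios of neighbouring hairpins with the same orientation spanned 1.08-fold to 26.1-fold in N2 over 5 clusters. miR-35 to miR-41 lie within 1 cluster on chromosome II (WBcel235, mir-35 from 11537608, mir-41 to 11538404), and their passengers stood at 0.165 to 0.957 per 100 in N2, a 5.80-fold span. miR-41-5p had the highest ratio of the cluster in 12 of the 14 mutant libraries. In a second cluster on the chromosome, miR-42-5p stood at 1.82, miR-43-5p at 8.10 and miR-44-5p at 5.70 per 100, a 4.46-fold span. In the intronic cluster of gcn-1 on chromosome III, miR-229-3p stood at 6.77 per 100 and miR-64-3p at 0.260, a 26.1-fold span, and miR-229-3p was the highest of its cluster in all 14 mutant libraries. The narrowest span was that of miR-73-5p at 0.587 and miR-74-5p at 0.634 per 100, and miR-61-5p at 7.91 and miR-250-5p at 21.6 spanned 2.73-fold.

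**Figure D2:**
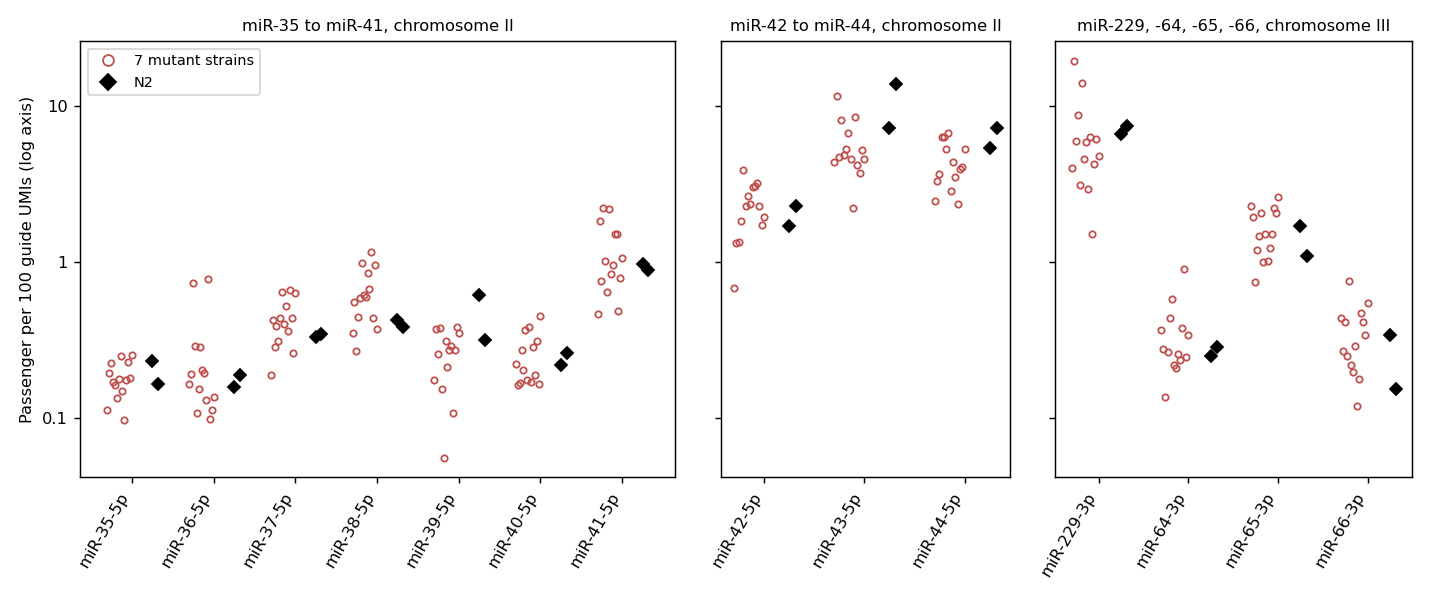
Passenger UMIs per 100 guide UMIs (log axis) for 3 clusters of hairpins; open circles are the 14 mutant libraries and diamonds the 2 N2 libraries. miR-229-3p, at 6.77 per 100 in N2, stands above miR-64-3p, at 0.260, in every library.

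Guides that occur in more than 1 hairpin limit some ratios. miR-44-3p and miR-45-3p are identical, their reads were divided evenly by the authors, and each guide carries 50.0% of its full UMIs. The passengers differ, with miR-44-5p at 5.70 and miR-45-5p at 1.27 per 100 in N2. Only the joint ratio is free of the division, and it was 1.52 to 4.57 per 100 in the mutant libraries, against 3.30 and 4.32 in N2. The miR-243 guide kept 92.8% of its full UMIs.

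Whether loss or replacement of the miR-51 family altered the passengers was asked with 2 measures. The level is the passenger in CPM, and the ratio sets it against the guide of the same library. Both were tested in edgeR's quasi-likelihood fit over all 16 libraries, with Benjamini-Hochberg adjusted p over all 162 strands or all 56 hairpins tested. All comparisons against N2 share the same 2 N2 libraries, which also chose the members; the rule favoured passengers that were high in them.

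miR-62-5p was the passenger called in most strains, in 4 by ratio and in 3 by level, each time lower than in N2. Its hairpin lies at chrX:12692608-12692665 on the plus strand, and it fills an intron of ugt-50, a UDP-glucuronosyltransferase gene, from end to end. It was the only 1 of the 56 hairpins to do so. Such a mirtron is excised by splicing in place of Drosha. The annotation used lists both mature arms for 54 of the 56 hairpins, and only 1 arm for mir-62.

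Per 100 guide UMIs, miR-62-5p had 1.22 and 1.03 passenger UMIs in miR-51null, 2.68 and 2.59 in miR-54C, 4.88 and 4.12 in miR-54+55, 4.27 and 1.24 in miR-54, 2.27 and 1.37 in miR-52to51, 0.939 and 3.17 in miR52to53, and 3.74 and 4.29 in miR52to57seed, against 10.4 and 6.75 in N2. All 14 mutant libraries lay below both N2 libraries. In the ratio this held for miR-62-5p and miR-86-3p only, which are the 4.0% of all 50 hairpins outside the family that did so. The counts behind it were 18 and 6 passenger UMIs in miR-51null, against 526 and 82 in N2.

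The ratio of miR-62-5p fell by 2.88 ± 0.56 (log2, SE; adjusted p = 0.000727) in miR-51null. It fell by 2.32 ± 0.54 in miR-52to51 (adjusted p = 0.0120), by 1.78 ± 0.50 in miR-54 (adjusted p = 0.0226) and by 1.68 ± 0.50 in miR-54C (adjusted p = 0.0498). The miR-51null call was kept in all 10 alternatives, at log2 values of -3.17 to -2.55. Without N2 replicate 1 the other calls were lost, with adjusted p of 0.292 in miR-52to51, 0.743 in miR-54 and 0.983 in miR-54C. The miR-54C call was also lost without any 1 of the other 3 libraries (adjusted p = 0.235 to 0.253), the miR-54 call without miR-54 replicate 2 (0.310) or N2 replicate 2 (0.0685), and the miR-52to51 call without miR-52to51 replicate 2 (0.137).

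Reads per UMI differed between the arms in N2 replicate 1. There miR-62-3p had 1.44 reads per UMI and miR-62-5p 1.08. By reads, the ratio was 1.10 and 0.965 per 100 in miR-51null, against 7.78 and 6.13 in N2, and the fall in miR-51null was 2.72 on the log2 scale (adjusted p = 0.00797). By reads the calls in miR-54, miR-52to51 and miR-54C were lost (adjusted p = 0.0874, 0.0588 and 0.349).

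The level of miR-62-5p was 175 and 76.3 CPM in miR-51null, 232 and 134 in miR-52to51, and 283 and 154 in miR-54, against 922 and 566 in N2. It fell by 2.53 ± 0.51 (log2, SE; adjusted p = 0.00216) in miR-51null, by 2.12 ± 0.51 (adjusted p = 0.00812) in miR-52to51 and by 1.75 ± 0.46 (adjusted p = 0.0233) in miR-54. The guide had 14356 and 7424 CPM in miR-51null, against 8894 and 8386 in N2, and these libraries overlapped. Without N2 replicate 1 only the miR-51null call was kept, with adjusted p of 0.0352, against 0.102 in miR-52to51 and 0.272 in miR-54. Without replicate 2 of their own strain these were 0.183 in miR-52to51 and 0.0987 in miR-54.

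miR-86-3p, from an intron of Y56A3A.7 on chromosome III, was the other passenger below N2 throughout. Its ratio was 1.33 and 0.817 per 100 in miR-51null, 1.34 and 1.92 in miR-54C, 3.23 and 2.79 in miR-54+55, 1.10 and 1.81 in miR-54, 2.65 and 1.48 in miR-52to51, 0.758 and 2.72 in miR52to53, and 2.68 and 3.66 in miR52to57seed, against 4.81 and 4.01 in N2. The range in the mutants reached close to N2 in miR52to57seed. The ratio fell by 2.02 ± 0.47 in miR-51null (adjusted p = 0.00311), by 1.66 ± 0.43 in miR-54 (adjusted p = 0.0170) and by 1.46 ± 0.44 in miR-54C (adjusted p = 0.0498). Without N2 replicate 1 each call was lost, with adjusted p of 0.0623, 0.738 and 0.983. The miR-54 call was also lost without miR-54 replicate 1 (adjusted p = 0.227) or N2 replicate 2 (0.0685), and the miR-54C call without any 1 of the other 3 libraries (0.103 to 0.492).

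miR-83-5p, whose guide belongs to the miR-29 seed family, was lowest in miR-52to51, but it was not low in that strain alone. Its ratio was below both N2 libraries in 12 of the 14 mutant libraries and above both in 2. Its level was below both in 13. Pooled by strain, the ratio was 1.92 per 100 in miR-52to51, 4.46 in miR52to57seed, 7.56 in miR52to53 and 9.51 to 12.6 in the other mutants, against 14.2 in N2. In miR-52to51 it had 0 and 4 UMIs, against 88 and 19 in N2, and a ratio of 0 and 2.33 per 100, against 14.4 and 13.6 in N2. The ratio fell by 2.86 ± 0.70 (adjusted p = 0.0120) and the level by 2.83 ± 0.70 (adjusted p = 0.0106). A count of 0 stands behind 1 of the libraries, the fitted values are not bounds, and without N2 replicate 1 the adjusted p were 0.169 and 0.0755. Without miR-52to51 replicate 2 that of the ratio was 0.137.

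miR-250-5p was the only passenger with a higher ratio in a strain by the test. It lies beside mir-61 on chromosome V and stood close to its guide in miR-54, at 98.1 and 108 per 100, against 19.9 and 32.2 in N2. In the other mutants the ratio ran from 18.2 to 112, with the highest value in miR-51null replicate 2. The rise in miR-54 was 2.08 ± 0.55 (adjusted p = 0.0170), on 52 and 27 passenger UMIs. The guide, miR-250-3p, itself fell by 1.21 ± 0.38 in miR-54 (adjusted p = 0.0472), at 268 and 193 CPM, against 659 and 408 in N2, while the level of the passenger had a log2 change of 0.85 ± 0.46 that did not pass the test (adjusted p = 0.339). The call on the ratio was lost without N2 replicate 1 (adjusted p = 0.743), without any 1 of the other 3 libraries (0.0685 to 0.147) and by reads (adjusted p = 0.0886).

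**Figure D3:**
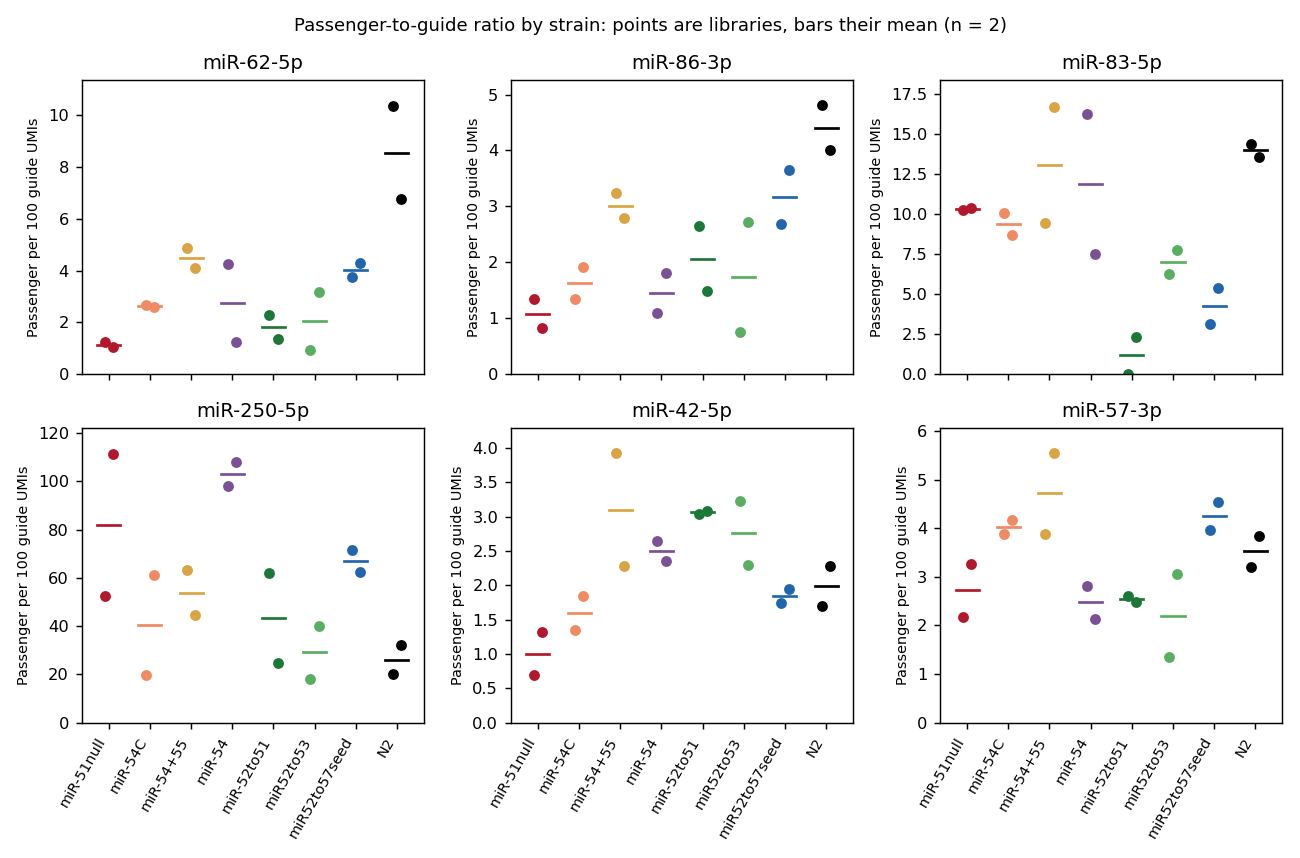
Passenger UMIs per 100 guide UMIs of 6 passengers in each strain; points are the 2 libraries and bars their mean. For miR-62-5p and miR-86-3p all 14 mutant libraries lie below both N2 libraries, which stand at 10.4 and 6.75 and at 4.81 and 4.01.

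Counting all 46 passengers, the ratio test called 2 in miR-51null, where 4.0% of the 50 hairpins outside the family were called. It called 2 in miR-54C (4.0%), 3 in miR-54 (6.0%) and 2 in miR-52to51 (4.0%). The background counts the same passengers, since all the calls outside the family were members. In miR-54+55, miR52to53 and miR52to57seed 0 were called (0.0% in each), with 2, 6 and 6 at an unadjusted p under 0.05. With N2 and the strain alone in the fit, 1, 2 and 4 were called. For these and the unadjusted counts no share over all hairpins is given.

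The level test called 4 passengers in miR-51null, all lower, where 4.67% of 150 strands were called. Beside miR-62-5p these were miR-86-3p, at -1.72 ± 0.48 (adjusted p = 0.0259), miR-228-3p at -1.41 ± 0.40 (adjusted p = 0.0259) and miR-124-5p at -1.25 ± 0.37 (adjusted p = 0.0354). miR-124 is the conserved neuronal miRNA, and miR-228 is known from glia. Their ratios in miR-51null had log2 changes of -1.44 ± 0.52 for miR-228-3p (adjusted p = 0.0846) and -0.73 ± 0.51 for miR-124-5p (adjusted p = 0.397), which did not pass the test.

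miR-228-3p had 136 and 89.0 CPM in miR-51null, against 330 and 276 in N2. miR-124-5p had 117 and 140 CPM in miR-51null, against 312 and 297 in N2. The libraries of the strains did not overlap, but without N2 replicate 1 the adjusted p was 0.176 for each, and 0.155 for miR-86-3p. Without N2 replicate 2 or without miR-51null replicate 2, these calls were also lost (adjusted p of 0.0664 to 0.143 and of 0.0704 to 0.126), as were those of miR-124-5p and miR-86-3p without miR-51null replicate 1 (0.173 and 0.0533).

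In miR-54 the level test called 2 passengers (6.0% of all strands), miR-62-5p and miR-44-5p, with miR-44-5p at -1.12 ± 0.35 (adjusted p = 0.0484). miR-44-5p had 329 and 317 CPM in miR-54, against 649 and 767 in N2. In miR-52to51 it called 3 (4.0%): miR-62-5p, miR-83-5p and miR-43-5p, which stood at 148 and 336 CPM in miR-52to51, against 652 and 781 in N2, a fall of 1.46 ± 0.40 (adjusted p = 0.0226). Without N2 replicate 1 the adjusted p was 0.160 for miR-44-5p and 0.0687 for miR-43-5p. Without any 1 of the other 3 libraries it was 0.134 to 0.315 for miR-44-5p, and for miR-43-5p it was 0.155 without miR-52to51 replicate 1 and 0.156 without N2 replicate 2.

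In miR-54C (0.0%), miR-54+55 (0.667%), miR52to53 (1.33%) and miR52to57seed (0.667%) the level test called 0 passengers. At an unadjusted p under 0.05 the counts were 5, 5, 7 and 3, and DESeq2 called 0 in each. With N2 and the strain alone in the fit, 7 were called in miR-54C, 1 in miR-54+55, 0 in miR52to53 and 3 in miR52to57seed. The percentages belong to the adjusted calls of the fit over all 16 libraries. No share over all strands is given for the other counts, which are not read as results about passengers.

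The levels of 5 passengers lay below both N2 libraries in all 14 mutant libraries, where 4.67% of strands did so: miR-43-5p, miR-44-5p, miR-45-5p, miR-46-5p and miR-62-5p. That share counts the same 5, with miR-38-3p and miR-66-5p. The rule favoured passengers high in N2, so the count is a description. miR-45-5p and miR-46-5p were not called in any comparison. miR-61-5p lay above both in all 14 (2.0% of strands), at 193 to 364 CPM in the mutants, against 186 and 187 in N2.

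The median log2 change in passenger level was below 0 in each of the 7 strains, at -0.37 in miR-51null, -0.36 in miR-54C, -0.24 in miR-54+55, -0.32 in miR-54, -0.28 in miR-52to51, -0.44 in miR52to53 and -0.05 in miR52to57seed. Over all strands tested the medians were between -0.12 and 0.04. The members were chosen for their N2 sums, and the medians are given without a test.

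**Figure D4:**
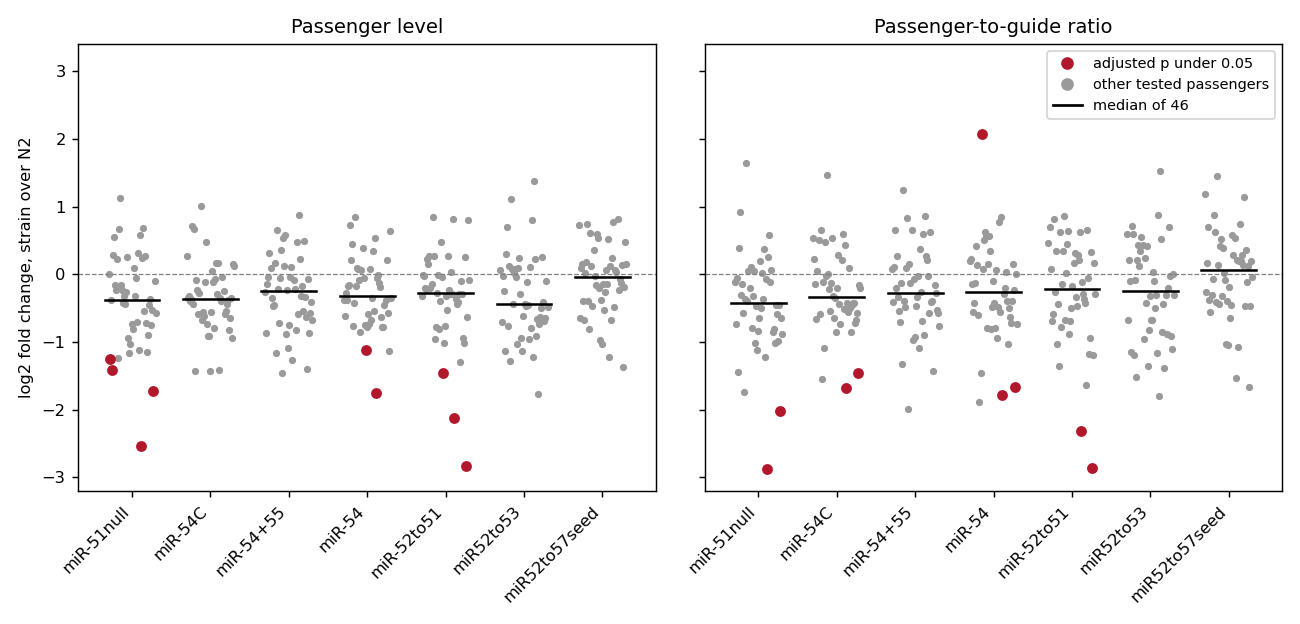
Log2 fold change of each strain over N2 for the 46 tested passengers, as level and as ratio to the guide; red points passed an adjusted p under 0.05 and bars are medians. The median level changes lie between -0.44 and -0.05, and miR-250-5p in miR-54, at 2.08, is the only called value above 0.

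The mutant strains were also compared with each other, in contrasts without N2, although the N2 libraries remained in the fit and so in its scaling and spread. The test for any difference among the 7 strains called 0 passengers by level (0.667% of strands) and 0 by ratio (0.0%). At an unadjusted p under 0.05 the counts were 3 and 9, and DESeq2 called 1 by level, without a share over all features beside them. Set against the mean of the other 6 mutant strains, miR-51null had 0 passengers called by level (0.0%; 7 at an unadjusted p under 0.05, and 0 by DESeq2) and 1 by ratio (2.0%), miR-42-5p.

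miR-42-5p is the passenger of the family member that lies apart from the miR-35 to miR-41 cluster. Its ratio was 0.686 and 1.32 per 100 in miR-51null, against 1.35 and 1.84 in miR-54C, 3.92 and 2.28 in miR-54+55, 2.65 and 2.35 in miR-54, 3.05 and 3.08 in miR-52to51, 3.23 and 2.3 in miR52to53, and 1.74 and 1.94 in miR52to57seed. Both miR-51null libraries lay below the 12 others. The ratio fell by 1.30 ± 0.32 (log2, SE; adjusted p = 0.0234), on 30 and 51 passenger UMIs. The adjusted p was 0.305 without miR-51null replicate 1, 0.0509 without miR-52to51 replicate 2, 0.0696 without all N2 libraries and 0.0636 by reads.

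Summed over the 56 hairpins, passengers were 1.20% and 1.76% of both arms in miR-51null, 1.67% and 1.82% in miR-54C, 1.66% and 1.49% in miR-54+55, 1.81% and 1.74% in miR-54, 1.92% and 1.80% in miR-52to51, 1.88% and 1.64% in miR52to53, and 1.86% and 1.96% in miR52to57seed, against 1.88% and 1.86% in N2. miR-51null replicate 1 stood lowest of all 16 libraries. With 2 libraries against 2 no exact permutation test can go below 0.333, and none was run.

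**Figure D5:**
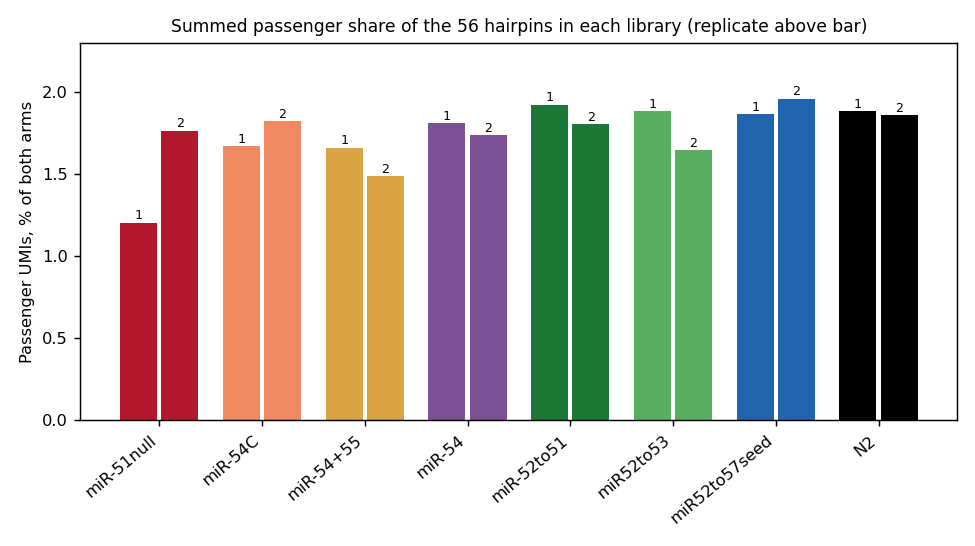
Passenger UMIs as a percentage of the UMIs on both arms, summed over the 56 hairpins, in each library; the replicate number stands above its bar. miR-51null replicate 1 is lowest at 1.20%, and N2 stands at 1.88% and 1.86%.

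Ratios differed between the libraries of a strain. Tested passengers at 0 in either library are left out of these counts, so the spread is understated where they occur. Differences of over 2-fold held for 14 of 45 passengers in miR-51null, 5 of 45 in miR-54C, 7 of 41 in miR-54+55 and 15 of 46 in miR-54. They held for 12 of 44 in miR-52to51, 18 of 42 in miR52to53 and 6 of 46 in miR52to57seed, against 1 of 46 in N2, the deepest strain. In miR-51null miR-236-5p differed most, 5.14-fold. miR-58a-5p stood at 2.34 and 7.95 per 100 in miR-51null, against 2.96 and 3.83 in N2, and miR-229-3p at 4.0 and 19.4 in miR-51null, against 6.6 and 7.42 in N2.

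Families fixed by seed or locus are summarised over the 7 comparisons with N2. Of the 8 passengers of miR-35 to miR-42, 0 were called by either measure, and the median log2 change was -0.13 in level and 0.06 in ratio. For miR-58a, miR-80, miR-81 and miR-82, 0 of 4 were called, with medians of -0.29 and -0.23. For miR-64, miR-65, miR-66, miR-229 and miR-63, 0 of the 3 tested were called, and likewise 0 of 2 for miR-46 and miR-47 and 0 of 3 for miR-72 to miR-74.

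Of miR-50, miR-62 and miR-90, 1 member was called, miR-62-5p, 3 times by level and 4 times by ratio. miR-44-5p alone was called among miR-44, miR-45 and miR-61, once by level, and miR-43-5p and miR-250-5p among miR-2, miR-43 and miR-250. For miR-1, the muscle miRNA, and miR-124, 1 was called, miR-124-5p. miR-79-5p was tested and not called, and miR-75-5p is below the threshold.

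miR-57 was of interest because miR52to57seed carries an altered mir-57 hairpin at the mir-52 locus. miR-57-3p had 13 and 19 UMIs in miR52to57seed, and 276 and 245 CPM, against 261 and 318 in N2. Its ratio was 3.96 and 4.55 per 100, against 3.21 and 3.84 in N2. The log2 change was -0.15 ± 0.40 in level and 0.29 ± 0.46 in ratio, and neither passed the test (adjusted p = 0.947 and 0.884). Counts under the guide name, miR-57-5p, were 328 and 418 UMIs in miR52to57seed, of 49117 and 82518 miRNA UMIs. In N2 they were 4643 and 1198, of 844718 and 229603. Of the miRNA UMIs in miR52to57seed, 49037 and 82369 were outside the miR-51 family. The counts do not tell strands of the altered hairpin from those of the mir-57 locus. Whether the altered hairpin was counted under these names was not tested.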

How the data were processed

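Per the labels, small RNA libraries of whole embryos were prepared with size selection and adaptor ligation. The authors deposited, for each library, estimated counts of reads and of UMIs per miRNA strand, with reads shared by strands split between them, and the count of UMIs in full. None is normalized. The submitters' processing notes name WBcel235, and the aligner is not given in the sources used here. Strands not listed in a library were taken as 0.

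Estimated UMI counts were rounded. Strands with at least 10 UMIs in 2 libraries were fitted in edgeR 4.0.16 (R 4.3.3), with TMM factors over strands outside the miR-51 family, the quasi-likelihood test and strains as groups. The ratio used a library term and an arm-by-strain term. Levels are relative and spike-in amounts were not used. The biological coefficient of variation was 26.1% for levels and 20.2% for ratios. The fits were run on simulated data with less spread than these data have, so that run does not show how they perform at the observed spread. Passengers named were the 8 most abundant, the 5 highest and 5 lowest ratios, up to 3 called per comparison, shared guides, miR-57 and listed families; further called ones were named after their values were seen. Members and lists were chosen with earlier results of these data known. Alternatives were no TMM, DESeq2 1.42.0, reads, UMIs in full, no filter, 20 UMIs, the replicate block, the strains alone and each library left out. Leaving out both N2 libraries was added after seeing the data. Python 3.11.15, numpy 2.4.6, pandas 2.3.3, scipy 1.17.1 and matplotlib 3.10.9 were used, and coordinates are from Ensembl release 115.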

Additional observations from a re-analysis of the deposited data

Results flagged for a closer look

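The ratio of miR-42-5p to its guide differed between miR-51null and the mean of the 6 other mutant strains, with a log2 change of -1.30 ± 0.32 (SE; adjusted p = 0.0234 in edgeR's quasi-likelihood fit over all 16 libraries), and was lower in both miR-51null libraries than in the 12 others. The call was lost with all N2 libraries left out of the fit (adjusted p = 0.0696), by reads (0.0636), without miR-51null replicate 1 (0.305) and without miR-52to51 replicate 2 (0.0509). Against N2 the change in miR-51null, -1.02 ± 0.40, did not pass the test (adjusted p = 0.0944).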

How the results depend on the processing

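Counts of passengers called follow, with the strain standing for its comparison with N2. They show how calls move with the processing, and no share over all strands or hairpins is given for these fits. By level, miR-51null gave 2 with DESeq2, 1 by reads, 2 without the filter and 2 with the strains alone. miR-54 gave 1 without TMM, 1 by reads and 1 without the filter. With the strains alone, miR-54C gave 7, miR-54+55 1 and miR52to57seed 3. Among the 7 strains, DESeq2 called 1 and the unfiltered fit 2. By ratio, miR-51null gave 5 at 20 UMIs. miR-54C gave 0 by reads, with UMIs in full, at 20 UMIs and with the replicate block. miR-54+55 gave 1 without the filter and 1 with the strains alone. miR-54 gave 0 by reads and 0 with the strains alone. miR-52to51 gave 1 by reads and 5 with the strains alone. miR52to53 gave 1 without the filter and 2 with the strains alone, and miR52to57seed 4 with the strains alone. Among the 7 strains the unfiltered fit called 2. miR-51null against the 6 others gave 0 by reads and 0 without all N2 libraries.

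With each library left out, level counts were 1 to 3 in miR-51null, 0 to 1 in miR-54, 0 to 2 in miR-52to51, 0 to 2 in miR52to53, 0 to 1 among the 7 strains and 0 to 1 for miR-51null against the 6 others. Ratio counts were 1 to 6 in miR-51null, 0 in miR-54C, 0 to 1 in miR-54, 0 to 2 in miR-52to51, 0 to 2 among the 7 strains and 0 to 2 for miR-51null against the 6 others. The cause was not tested. Of the 19 named changes 0 reversed in any alternative, 2 passed in all of them, both miR-62-5p in miR-51null, and 16 of 18 were lost without N2 replicate 1.

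For each strain the log2 difference in level between replicate 1 and replicate 2 was taken over 150 strands. Between strains these differences correlated at a median r of 0.001 over 28 pairs (range -0.44 to 0.39), with 8 pairs over 0.1. The median gives no sign of a pairing by number across the strains, and pairing within single pairs of strains was not tested. The block removed the miR-54C ratio calls (0 against 2). N2 replicate 1 carries most N2 molecules, and the small libraries hold as few as 259 passenger UMIs.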
